A study of Mus musculus with 16 samples.

Results

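The neuropeptide receptor genes examined here were 10 members of 5 receptor families, namely the neuropeptide Y receptors Npy1r, Npy2r and Npy5r, the somatostatin receptors Sstr1, Sstr2, Sstr3 and Sstr4, the corticotropin-releasing hormone receptor Crhr1, the cholecystokinin receptor Cckbr and the vasoactive intestinal peptide receptor Vipr1. They were found by gene symbol in the deposited gene table, which holds 26625 entries. All 10 symbols were present, and all 10 genes were among the 18826 entries tested after a filter on low counts. The RNA came from the medial prefrontal cortex (mPFC) of male C57BL/6 mice of 8 to 10 weeks, and was sequenced on a Nanopore instrument as PCR-amplified full-length cDNA in 16 libraries. The 7 control libraries were 3 Ctrl + Saline and 4 Ctrl + Morphine libraries from mice given an adeno-associated virus with a negative-control hairpin, and their genotype is labelled WT. The 9 knockdown libraries were 5 Kdm7a-shRNA + Saline and 4 Kdm7a-shRNA + Morphine libraries from mice given a virus with a short hairpin RNA against Kdm7a, a histone H3 lysine demethylase. All mice went through 10 days of place conditioning, with morphine at 10 mg/kg alternating with saline in the morphine groups and saline alone in the others. The tissue was taken on day 17, which was withdrawal day 7. The hairpin was driven by the U6 promoter and EGFP by the CMV promoter, promoters that are not restricted to a cell type, and the dissected tissue also contained cells without virus. Neither the labels nor the methods state whether each library is a single mouse, so the p-values measure the spread between libraries, which may be partly technical.

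Neuropeptide receptors are G protein-coupled receptors that sit on the surface of neurons and respond to peptides released by neighbouring cells, in the cortex largely by subtypes of inhibitory interneurons. The receptors for neuropeptide Y and somatostatin couple to Gi proteins, lower cyclic AMP and quieten neurons. CRHR1 and VIPR1 couple to Gs and raise cyclic AMP, and CCKBR couples mainly to Gq and phospholipase C. Several of these systems, CRH and CRHR1 above all, are known for their part in stress and drug withdrawal. Receptor messages are often scarce in whole tissue, and each gene's counts are given below with its values.

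Knockdown of Kdm7a was accompanied by a lower level of 1 receptor message, Cckbr, in the saline groups, and none of the other receptors passed the test in any comparison. Under saline, Cckbr was 0.64-fold of its control level (95% interval of the log2 fold change -1.11 to -0.18). Passing meant a change of 1.5-fold or more in either direction together with an adjusted p-value below 0.05, from edgeR's quasi-likelihood test with Benjamini-Hochberg adjustment across the whole set of tested genes. Among all tested genes 16.7% passed under saline, and 9.31% passed as lower, so that 1 of 10 receptors is near the background. All 10 receptors are known genes, and when known genes alone were tested the shares that passed were 9.83% under saline, 3.09% under morphine and 10.1% in the averaged comparison. Without Ctrl + Saline replicate 3 the saline share over all tested genes was 7.40%. Crhr1 had the next smallest p-value in the knockdown comparison averaged over saline and morphine, with 0.71-fold of the control level and an adjusted p-value of 0.0612. The point estimate was below 0 on the log2 scale for 8 of the 10 receptors under saline, for 9 under morphine and for 9 in the averaged comparison. For all tested genes, 48.7%, 50.4% and 48.8% of the estimates were below 0 in the same comparisons, and for the known genes among them 40.4%, 44.8% and 41%. Neither morphine comparison, and no test of a difference between the knockdown effects, gave a receptor that passed.

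The targeted gene was examined first. Levels are given as normalized CPM, a gene's count scaled to its library's total after TMM normalization. For Kdm7a the level was 9.42 ± 0.353 (SD, n = 3) in Ctrl + Saline, 7.72 ± 1.13 (SD, n = 4) in Ctrl + Morphine, 5.55 ± 0.571 (SD, n = 5) in Kdm7a-shRNA + Saline and 4.94 ± 1.53 (SD, n = 4) in Kdm7a-shRNA + Morphine. Its log2 fold change on knockdown was -0.76 ± 0.204 (SE) under saline with an adjusted p-value of 0.0153. Under morphine it was -0.67 ± 0.206 (SE) with an adjusted p-value of 0.0506, just above the threshold, and the groups overlapped, with 6.28 as the highest knockdown library and 6.19 as the lowest control library. Total counts per library were 6596991 to 12418112. The markers of cortical excitatory neurons and of inhibitory neurons were present in every library, with at least 69 counts for Tbr1 and 703 for Gad1.

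The promoter windows of 3 receptors are shown, chosen by their results in the knockdown comparisons. Cckbr was the receptor that passed under saline, and it had the smallest p-value in the averaged comparison, where it did not pass. Crhr1 had the next smallest p-value in the averaged comparison, and Sstr3 was the receptor with an averaged estimate above 0. Each window runs from 250 bases before to 50 bases after the RefSeq transcription start, 5′ to 3′ on the gene's strand, on GRCm38.p6. CpG dinucleotides are in capitals.
Cckbr, chr7:105425481-105425780 (+): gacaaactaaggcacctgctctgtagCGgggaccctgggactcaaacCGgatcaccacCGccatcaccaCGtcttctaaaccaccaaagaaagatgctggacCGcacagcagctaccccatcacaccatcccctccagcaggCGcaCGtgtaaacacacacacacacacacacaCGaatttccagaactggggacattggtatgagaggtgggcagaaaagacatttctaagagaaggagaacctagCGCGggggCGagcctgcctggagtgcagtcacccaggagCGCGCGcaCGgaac
Crhr1, chr11:104132531-104132830 (+): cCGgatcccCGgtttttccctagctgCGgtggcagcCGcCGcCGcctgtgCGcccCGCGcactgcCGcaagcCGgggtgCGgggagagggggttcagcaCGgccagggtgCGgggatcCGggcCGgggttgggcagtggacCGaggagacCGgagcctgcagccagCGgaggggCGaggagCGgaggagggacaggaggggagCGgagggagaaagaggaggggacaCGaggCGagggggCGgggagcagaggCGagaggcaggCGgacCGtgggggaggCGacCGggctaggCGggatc
Sstr3, first of 2 windows, chr15:78544296-78544595 (-): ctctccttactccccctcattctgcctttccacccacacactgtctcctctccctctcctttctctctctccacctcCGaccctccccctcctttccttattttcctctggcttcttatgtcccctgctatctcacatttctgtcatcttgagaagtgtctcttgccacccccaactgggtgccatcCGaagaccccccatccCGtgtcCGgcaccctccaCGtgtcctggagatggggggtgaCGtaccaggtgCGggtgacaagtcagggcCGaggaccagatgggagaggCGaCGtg
The Cckbr window held 15 CpG, the Crhr1 window 31 and the Sstr3 window 10, against a median of 7 over 32851 mouse promoter windows of the same length. For Cckbr 65.4% of windows held fewer CpG, and for Crhr1 89.4%. The second Sstr3 window held 1 CpG. GC content was 57% for Cckbr, 75% for Crhr1 and 58.7% for the first Sstr3 window, with a median of 52.7% over all windows. RefSeq windows were found for 9 of the 10 receptors, and Sstr1 had none in the table used.

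The windows were searched on both strands for short motifs. The cyclic AMP response element TGACGTCA, present in 1.79% of all windows, occurred once in Sstr2 and in no other receptor window. Its shorter core TGACG, which the full element contains and which is in 20.8% of windows, was found in Sstr2, Vipr1 and the first Sstr3 window. The GC box GGGCGG, in 35.7% of windows, was found in Npy2r, Sstr2, Crhr1 and Vipr1, with 4 matches in Vipr1. The letters CCAAT, in 37.4% of windows, were found in Npy5r, the second Sstr3 window, Sstr4, Cckbr and Vipr1. The E-box CANNTG, in 72.3% of windows, was found in Npy1r, Npy2r, Npy5r, the first Sstr3 window, Sstr4 and Cckbr, with 4 matches in Sstr3 and 2 in Cckbr. No receptor window held TATAAA, which is in 13.6% of all windows. A match describes these letters and not a bound site.

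Cckbr encodes the cholecystokinin B receptor, the main brain receptor for the peptide cholecystokinin. The gene lies on the plus strand of chromosome 7 (GRCm38, 105425731 to 105470898), and its longest coding transcript has 5 exons. It was the most deeply counted receptor, with 206 to 513 counts per library. In Ctrl + Saline the 3 libraries gave 50.1, 50.1 and 40.7 normalized CPM, and in Kdm7a-shRNA + Saline the 5 libraries gave 33.1, 28.3, 26.3, 39.9 and 22.7. Every knockdown library under saline was below every control library, by a margin as small as that between 39.9 and 40.7. The means were 46.9 ± 5.43 (SD, n = 3) and 30.1 ± 6.66 (SD, n = 5), and the log2 fold change was -0.64 ± 0.222 (SE) with an adjusted p-value of 0.0481. Groups that do not overlap under saline were seen for 23.7% of all tested genes, and Cckbr was the 1 receptor among them.

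With morphine the picture for Cckbr was split by a single library. In Ctrl + Morphine the values were 41.7, 48.6, 49.8 and 53.6 normalized CPM. In Kdm7a-shRNA + Morphine they were 31.6, 27.5, 22.6 and 53.5, so that 3 libraries lay below all controls and replicate 4 lay beside the highest control. The means were 48.4 ± 4.95 (SD, n = 4) and 33.8 ± 13.7 (SD, n = 4), and the log2 fold change of -0.52 ± 0.218 (SE) had an adjusted p-value of 0.138. Without Kdm7a-shRNA + Morphine replicate 4 the log2 fold change was -0.84 with an adjusted p-value of 0.00854. The averaged comparison gave -0.58 ± 0.156 (SE) with an adjusted p-value of 0.00969, and a fold change just under the threshold of 1.5. The interaction, which is the knockdown effect with morphine minus that with saline, was 0.12 ± 0.312 (SE) on the log2 scale, with an adjusted p-value of 0.936 and a 95% interval of -0.54 to 0.78. The saline call also rested on few libraries. It was kept when Kdm7a-shRNA + Saline replicate 4 was left out (adjusted p = 0.0199), and lost when any of the 3 Ctrl + Saline libraries or Kdm7a-shRNA + Saline replicate 1, 2, 3 or 5 was left out (adjusted p = 0.0579 to 0.148).

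Crhr1 encodes the principal brain receptor for corticotropin-releasing hormone, the peptide that starts the stress response. The gene lies on the plus strand of chromosome 11 (GRCm38, 104132855 to 104175523), has 13 exons in its coding transcript, and was counted 21 to 61 times per library. In Ctrl + Saline the libraries gave 4.89, 5.27 and 4.90 normalized CPM, and in Kdm7a-shRNA + Saline 5.86, 2.996, 3.08, 4.50 and 3.52. Replicate 1 of the knockdown group was above all 3 controls, the other 4 were below them, and the log2 fold change was -0.33 ± 0.275 (SE) with an adjusted p-value of 0.417. In Ctrl + Morphine the libraries gave 4.79, 6.51, 4.87 and 4.92, and in Kdm7a-shRNA + Morphine 4.29, 2.52, 1.98 and 4.70. Under morphine every knockdown library was below every control library, as for 13.9% of all tested genes, and Crhr1 was the 1 receptor among them. The log2 fold change under morphine was -0.68 ± 0.273 (SE) with an adjusted p-value of 0.127, and the averaged value was -0.50 ± 0.194 (SE). In the morphine comparison 7.69% of all tested genes passed and 4.83% passed as lower, against 0 of 10 receptors. Both Crhr1 (adjusted p = 0.0489) and Cckbr passed there when Kdm7a-shRNA + Morphine replicate 4 was left out.

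**Figure D1:**
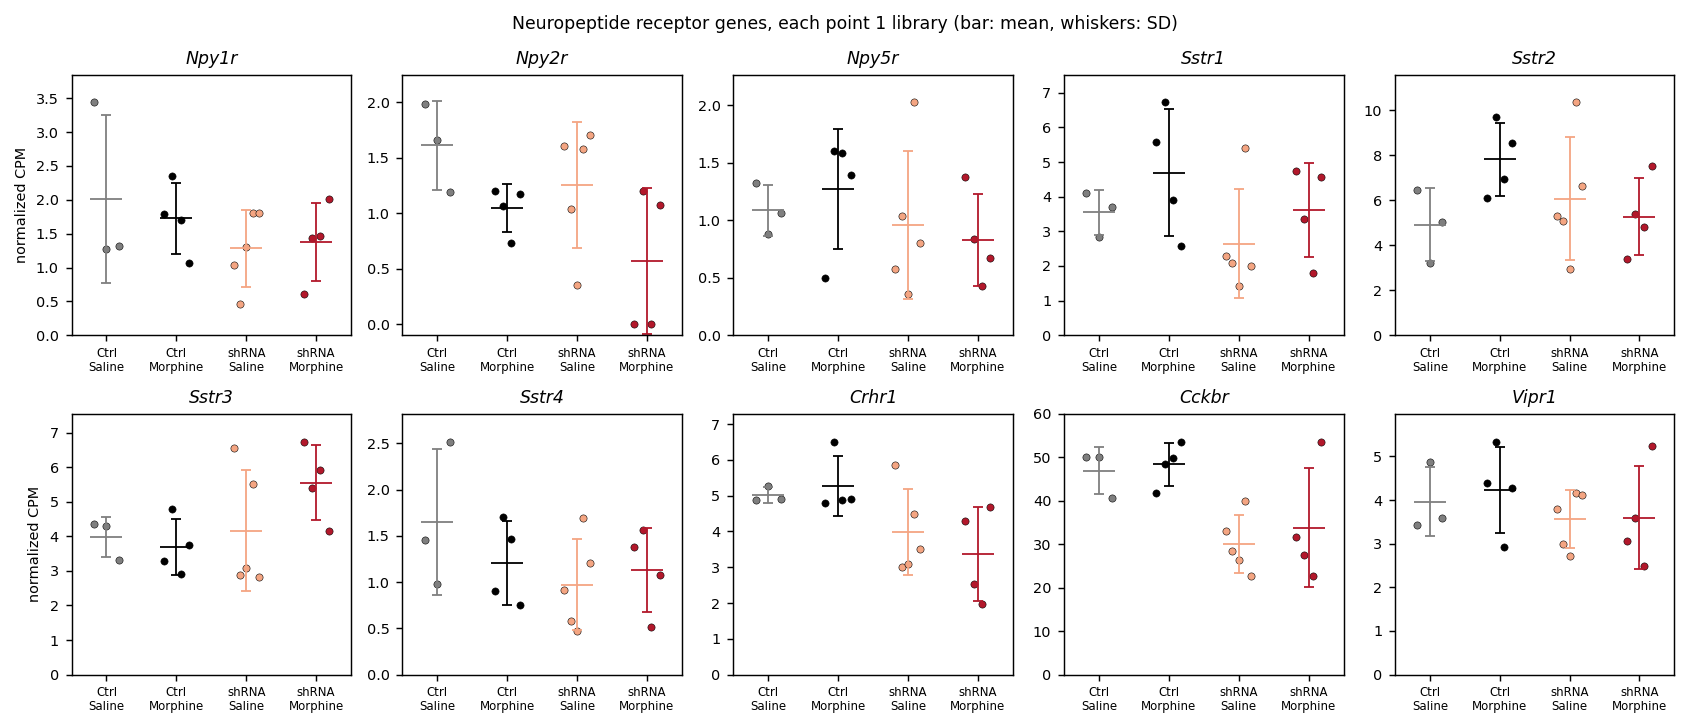
Normalized CPM (vertical axes, linear) of the 10 receptor genes in the 4 groups, with each point a library, the horizontal bar the group mean and the whiskers the SD. Cckbr was lower in all 5 Kdm7a-shRNA + Saline libraries than in the Ctrl + Saline libraries, while 1 Kdm7a-shRNA + Morphine library reached 53.5, at the control level.

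The somatostatin receptors SSTR1 to SSTR4 bind somatostatin and the related peptide cortistatin, and SSTR2 and SSTR4 are known to restrain cortical pyramidal neurons. Sstr3, whose protein is found in neuronal primary cilia, lies on the minus strand of chromosome 15 (GRCm38, 78537008 to 78544685), and had 24 to 69 counts per library. Its normalized CPM was 3.29, 4.80, 2.92 and 3.74 in Ctrl + Morphine and 6.74, 5.40, 5.93 and 4.16 in Kdm7a-shRNA + Morphine. The knockdown libraries were mostly the higher ones, with replicate 4 inside the control range. The log2 fold change was 0.59 ± 0.278 (SE), with an adjusted p-value of 0.194 and a 95% interval of 0.00195 to 1.17. Under saline the 3 controls gave 4.36, 4.29 and 3.31, and the knockdown libraries 6.55, 2.88, 3.08, 5.51 and 2.81. They fell on both sides of the controls, and the log2 fold change was 0.06 ± 0.292 (SE), which was below 0 when counts were scaled by library size only (-0.07) and when known genes alone were tested (-0.02). Sstr3 was the only receptor with an estimate above 0 in the averaged comparison (0.32 ± 0.202, SE, adjusted p = 0.255), and that sign held under each alternative run.

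Sstr2 lies on the plus strand of chromosome 11 (GRCm38, 113619342 to 113626028) within the span of Slc39a11, a gene on the opposite strand. The sources used here do not state whether counting used strand, so a part of its 22 to 92 counts per library may belong to that neighbour. Its normalized CPM was 6.48, 3.22 and 5.03 in Ctrl + Saline and 6.09, 9.71, 6.94 and 8.56 in Ctrl + Morphine, with 6.48 of the saline group above the lowest morphine value. With the knockdown virus it was 5.29, 5.07, 2.96, 10.3 and 6.63 under saline and 3.37, 5.40, 4.81 and 7.51 under morphine. The values of both knockdown groups overlapped widely. The log2 fold change of morphine against saline was 0.69 ± 0.350 (SE) with the control virus and -0.20 ± 0.307 (SE) with the knockdown virus. The knockdown effect was 0.32 ± 0.339 (SE) under saline and -0.57 ± 0.318 (SE) under morphine. The difference between the knockdown effects, -0.89 ± 0.465 (SE), was the largest interaction estimate of the 10 receptors in size and had an adjusted p-value of 0.522.

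Sstr1 (chromosome 12, 58211772 to 58214444, plus strand) and Sstr4 (chromosome 2, 148395344 to 148396767, plus strand, a single exon) had 12 to 63 and 4 to 19 counts per library. Normalized CPM of Sstr1 was 3.55 ± 0.649 (SD, n = 3) in Ctrl + Saline and 2.64 ± 1.58 (SD, n = 5) in Kdm7a-shRNA + Saline. Of those 5 knockdown libraries, 4 were between 1.42 and 2.30, below all controls, and replicate 4 was at 5.40. Under morphine Sstr1 was 4.69 ± 1.83 in the control and 3.62 ± 1.36 in the knockdown libraries (SD, n = 4 each). Its log2 fold change on knockdown was -0.41 under both treatments, with standard errors of 0.411 and 0.384. Sstr4 had the lowest estimate of the 10 receptors under saline, -0.72 ± 0.457 (SE, adjusted p = 0.280), and -0.12 ± 0.456 (SE) under morphine. Its controls under saline spread from 0.976 to 2.52 normalized CPM and its knockdown libraries from 0.474 to 1.69.

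The neuropeptide Y receptors include Y1, which mediates much of the action of NPY on target neurons, Y2, which acts largely as a presynaptic brake on release, and Y5. Npy1r and Npy5r are neighbours on chromosome 8 of GRCm38, with Npy5r at 66679965 to 66688128 on the minus strand and Npy1r at 66697192 to 66706792 on the plus strand. They point away from each other, with 9063 bases between them. Npy2r lies on chromosome 3 (82538383 to 82548084, minus strand). These were among the most thinly counted receptors, with 4 to 26 counts per library for Npy1r, 0 to 17 for Npy2r and 3 to 18 for Npy5r. Of the 16 libraries, 7 had fewer than 10 counts for Npy2r and 11 had fewer than 10 for Npy5r. Differences at that depth had to be large to be detectable.

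Npy2r gave 1.98, 1.66 and 1.19 normalized CPM in Ctrl + Saline and 1.20, 1.07, 0.730 and 1.18 in Ctrl + Morphine. With the knockdown virus it gave 1.61, 1.04, 0.355, 1.57 and 1.71 under saline. Under morphine, replicates 2 and 4 gave 1.20 and 1.07, inside or next to the control range, and replicates 1 and 3 had 0 counts. A count of 0 allows up to 3 counts, which is 0.460 normalized CPM in replicate 1 and 0.258 in replicate 3, the latter from the deepest library. The log2 fold change on knockdown was -0.35 ± 0.613 (SE) under saline and -0.92 ± 0.699 (SE) under morphine, with adjusted p-values of 0.731 and 0.443. Morphine against saline gave -0.61 ± 0.652 (SE) with the control virus and -1.18 ± 0.660 (SE) with the knockdown virus, the lowest estimate of the 10 receptors in each comparison. These fitted values depend on how 0 counts are handled and are not bounds.

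Npy1r was 2.01 ± 1.24 normalized CPM (SD, n = 3) in Ctrl + Saline, where replicate 1 stood at 3.44 and the other two near 1.3, and 1.28 ± 0.566 (SD, n = 5) in Kdm7a-shRNA + Saline. Its log2 fold change on knockdown was -0.62 ± 0.443 (SE) under saline and -0.31 ± 0.434 (SE) under morphine. Without Ctrl + Saline replicate 1 the saline value was -0.04. Npy5r was 1.09 ± 0.223 (SD, n = 3) in Ctrl + Saline and 0.959 ± 0.648 (SD, n = 5) in Kdm7a-shRNA + Saline. Under morphine it was 1.27 ± 0.521 and 0.830 ± 0.403 (SD, n = 4 each), and its log2 fold change was -0.65 ± 0.499 (SE) with an adjusted p-value of 0.445. Groups overlapped for both genes under both treatments.

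Vipr1, a receptor for vasoactive intestinal peptide and for the related peptide PACAP, lies on chromosome 9 (121642716 to 121672954, plus strand) and had 20 to 50 counts per library. Its group means lay between 3.56 and 4.23, at 3.96 ± 0.796 (SD, n = 3), 4.23 ± 0.994 (SD, n = 4), 3.56 ± 0.661 (SD, n = 5) and 3.60 ± 1.18 (SD, n = 4) normalized CPM in the control groups with saline and morphine and in the knockdown groups with saline and morphine, in that order. Its averaged log2 fold change on knockdown was -0.21 ± 0.183 (SE), with a 95% interval of -0.59 to 0.18 that still includes a fall of the size estimated for Crhr1.

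**Figure D2:**
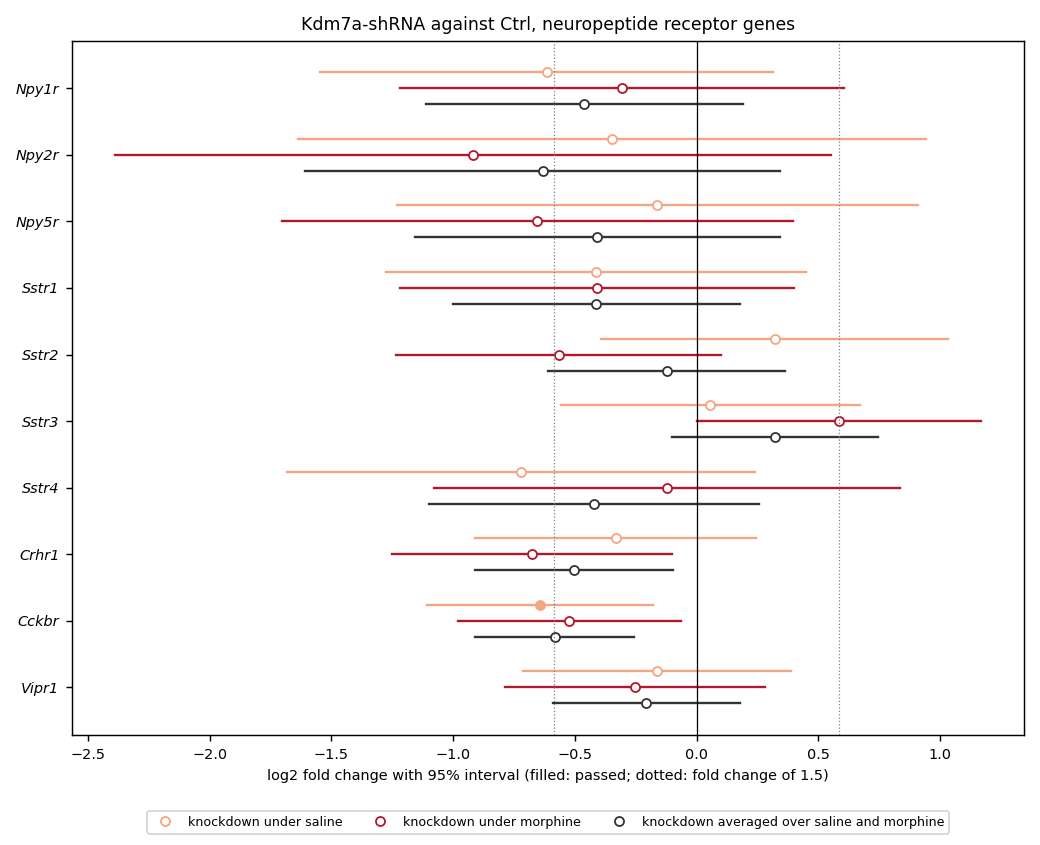
Log2 fold changes of Kdm7a-shRNA against Ctrl for the 10 receptors (horizontal axis), with 95% intervals, under saline, under morphine and averaged over both. Filled circles passed the test and dotted lines mark a fold change of 1.5. Cckbr under saline, at -0.64, is the only filled circle, and Sstr3 alone has an averaged estimate above 0, at 0.32.

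The medians of the 10 log2 fold changes were -0.34 under saline, -0.47 under morphine and -0.42 in the averaged comparison. The medians over all 18826 tested genes were 0.01, -0.00 and 0.01. In the averaged comparison 17.6% of all tested genes passed, and 0 of the 10 receptors did; 2 receptors, Cckbr and Crhr1, had p under 0.05 before adjustment in edgeR's test, as did 38.8% of all tested genes. DESeq2's Wald test likewise passed 0 receptors there. Knockdown and control libraries were shared between these comparisons, so the counts are not independent of each other.

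The knockdown libraries were spread more widely in their receptor values than the control libraries, which is given here as a description without a test. The ratios below were computed for the receptors alone, so no share over all genes can be set beside them. A trait of the receptors and a shift of whole libraries cannot be told apart from these values. Relative to the mean of the 7 Ctrl libraries on the log2 scale, the median over the 10 receptors ran from -0.14 to 0.36 in the control libraries. In Kdm7a-shRNA + Saline it was -0.33, -0.57, -0.94, 0.31 and -0.25 in replicates 1 to 5. All 10 receptors were below the control mean in replicates 2 and 3, and 2 of 10 were below it in replicate 4. In Kdm7a-shRNA + Morphine the medians were -0.31, -0.22, -1.05 and 0.15, with 9 of 10 receptors below the control mean in replicate 3 and 4 of 10 in replicate 4. The receptor median was thus lower than in every control library in 7 of the 9 knockdown libraries, and within the control range in replicate 4 of each knockdown group. Kdm7a was 6.07 and 6.04 normalized CPM in those replicates 4. It was also 6.04 in Kdm7a-shRNA + Saline replicate 3, which had the lowest receptor median of its group, and 6.28 in Kdm7a-shRNA + Morphine replicate 1. In Kdm7a-shRNA + Morphine replicate 3 both Kdm7a, at 3.01, and the receptor median, at -1.05, were the lowest of that group. A relation between the Kdm7a level and the receptor median was not tested.

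**Figure D3:**
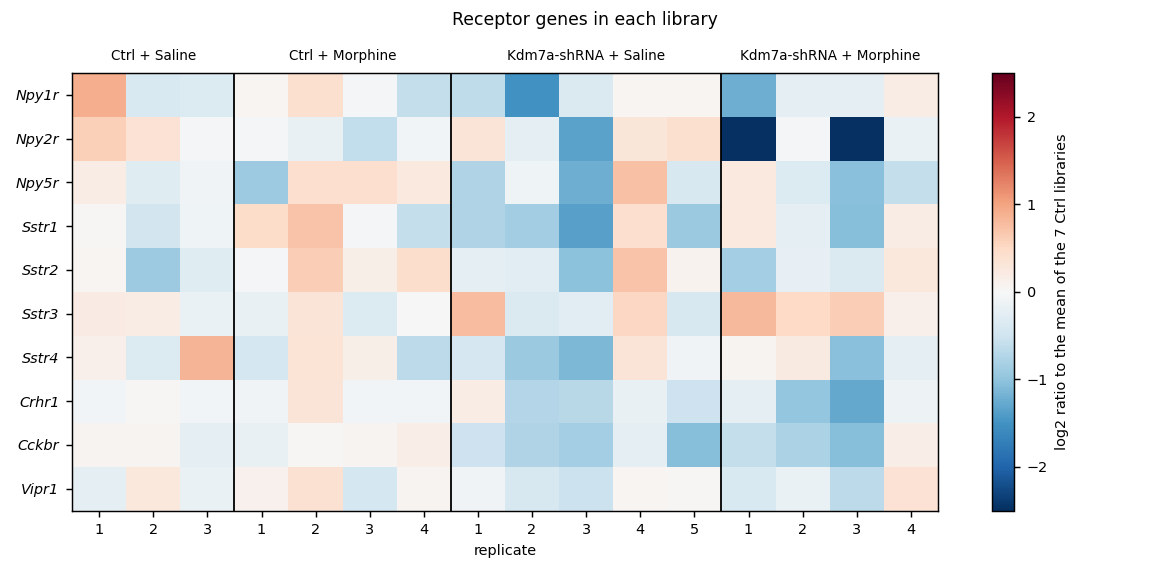
Log2 ratio of each receptor (rows) to the mean of the 7 Ctrl libraries in each of the 16 libraries (columns, by group and replicate), with blue below and red above that mean. Replicate 3 of each knockdown group is mostly blue, with medians of -0.94 and -1.05, and replicate 4 is not. The darkest cells are Npy2r in the 2 libraries with 0 counts, drawn at the end of the scale.

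Cell type markers moved with the virus as well. In a bulk tissue, fewer cells of a type and less RNA per cell cannot be told apart. The 4 microglial markers reported (Cx3cr1, P2ry12, Tmem119 and Csf1r) had estimates above 0 on knockdown, 3 passed under saline and 1 under morphine. Their summed normalized CPM was 252 to 309 in Ctrl + Saline, 200.3 to 289.8 in Ctrl + Morphine, 400.2 to 904 in Kdm7a-shRNA + Saline and 258 to 887 in Kdm7a-shRNA + Morphine. Replicate 3 of each knockdown group, with the lowest receptor medians, had the highest microglial sums of its group (904 and 887), and replicate 4 the lowest (400.2 and 258). The 5 markers of excitatory cortical neurons had none that passed, with median log2 fold changes of -0.43 under saline and -0.37 under morphine. Their sum was 1207 in Kdm7a-shRNA + Saline replicate 4 and 695 to 979 in the other libraries of that group, and 1467 in Kdm7a-shRNA + Morphine replicate 4 and 845 to 913 in the others. Of 5 astrocyte markers 2 passed as higher under saline, of 5 endothelial markers 3 did, and of 5 oligodendrocyte markers none. Under morphine 1 endothelial marker passed as higher and no astrocyte or oligodendrocyte marker did. Of 5 inhibitory neuron markers 2 passed as higher and 1 as lower under saline, and 1 as higher and none as lower under morphine. Beside these marker counts, 16.7% of all tested genes passed under saline and 7.69% under morphine, in either direction. When known genes alone were tested the shares were 9.83% and 3.09%. Of the 5 markers of neighbouring striatal tissue, 4 were tested and none passed, with Drd2 at 2 to 26 and Gpr6 at 1 to 13 counts per library. The summed normalized CPM of the 5 was 61.3 to 83.5 in Ctrl + Saline and 105.7 to 138.1 in Ctrl + Morphine, without overlap. That sum is mostly Ppp1r1b, with 328 to 1114 counts per library. Between these control groups Ppp1r1b had a log2 fold change of 1.00 (adjusted p = 0.155 in edgeR's test). Adora2a, Drd2 and Rgs9 had -0.07 each, so the list did not move as a set. The summed value of the 5 is given for the knockdown groups as well. It was 55.7 to 147.8 in Kdm7a-shRNA + Saline and 65.5 to 98.1 in Kdm7a-shRNA + Morphine. The part of these shifts in the receptor values was not tested.

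The genes on the ligand side of these receptors were the peptides and the CRH-binding protein. Of 14 such genes 11 were in the table and 8 were tested, of which 5 passed as lower under saline, 3 under morphine and 5 in the averaged comparison, beside 16.7%, 7.69% and 17.6% of all tested genes that passed in either direction. Cck, Crh and Adcyap1 passed in none of these comparisons. Npy, the ligand of the 3 NPY receptors, was 423 ± 49.2 normalized CPM (SD, n = 3) in Ctrl + Saline and 121 ± 21.7 (SD, n = 5) in Kdm7a-shRNA + Saline, a log2 fold change of -1.81 ± 0.165 (SE, adjusted p = 4.55e-05). Under morphine it was 344 ± 72.1 and 147 ± 21.8 (SD, n = 4 each), a log2 fold change of -1.22 ± 0.166 (SE, adjusted p = 9.22e-04). Sst fell by 1.14 on the log2 scale under saline and by 0.99 under morphine, and Cort, which encodes cortistatin, fell by 1.40 and 1.14. These pairs of groups did not overlap for any of the 3 ligands, as for 23.7% of all tested genes under saline and 13.9% under morphine.

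Vip and Crhbp, the gene of the CRH-binding protein that sequesters CRH, each passed as lower under saline, with log2 fold changes of -0.92 ± 0.210 (SE) and -0.92 ± 0.202 (SE). Under morphine they gave -0.54 and -0.33 with adjusted p-values of 0.108 and 0.318. Cck, the ligand of CCKBR, was 239 ± 120 normalized CPM (SD, n = 3) in Ctrl + Saline and 401 ± 126 (SD, n = 5) in Kdm7a-shRNA + Saline, with a log2 fold change of 0.75 ± 0.282 (SE) and an adjusted p-value of 0.0685. Under morphine it was 500 ± 42.6 in the control and 314 ± 95.4 in the knockdown libraries (SD, n = 4 each), a log2 fold change of -0.67 ± 0.267 (SE, adjusted p = 0.120). The Cck estimates thus had opposite signs, and their difference of -1.42 ± 0.388 (SE) had an adjusted p-value of 0.152, while those of Cckbr were both below 0. Crh itself was near the limit of counting, at 0.703 normalized CPM in Ctrl + Saline and 1.48 in Kdm7a-shRNA + Saline (adjusted p = 0.198). Adcyap1, which encodes PACAP, had log2 fold changes of 0.19 under saline and 0.54 under morphine and did not pass.

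**Figure D4:**
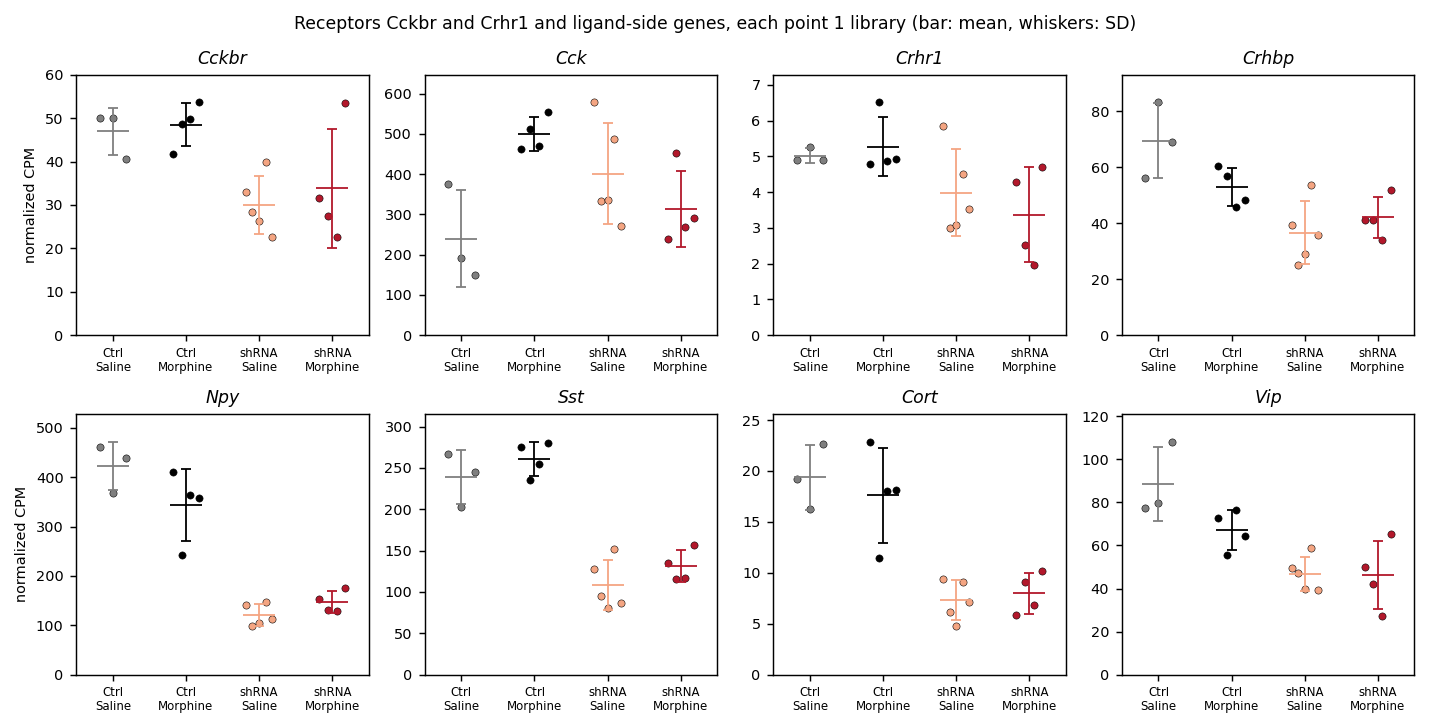
Normalized CPM (vertical axes, linear) of Cckbr and Crhr1 beside ligand-side genes in the 4 groups, with each point a library, the bar the mean and the whiskers the SD. Npy, Sst and Cort were lower in every knockdown library than in every control library of the same treatment, whereas Cckbr and Crhr1 were so under 1 treatment each. Groups did not overlap, in either direction, for 23.7% of all tested genes under saline and 13.9% under morphine.

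Other peptide receptors were counted from a list of 42 genes, of which 38 were in the table and 14 were tested. Of these, 4 passed as lower and 1 as higher in the saline groups, 3 as lower and none as higher in the morphine groups, and 4 as lower and none as higher in the averaged comparison. Of all tested genes 9.31% passed as lower with saline and 4.83% with morphine. In either direction 16.7% passed with saline, 7.69% with morphine and 17.6% in the averaged comparison. Mc4r, a receptor for melanocortins, fell by 1.51 on the log2 scale under saline and by 1.68 under morphine. Rxfp1, a relaxin receptor, fell by 1.14 and 1.15. Adcyap1r1, the receptor selective for PACAP and a relative of Vipr1, had log2 fold changes of -0.54 ± 0.161 (SE, adjusted p = 0.0249, short of the fold threshold) under saline and -0.77 ± 0.159 (SE, adjusted p = 0.00842) under morphine, and Gpr83 fell by 0.87 under saline and had a log2 fold change of -0.27 under morphine (adjusted p = 0.443). The median log2 fold change of the 14 tested genes was -0.57 under saline and -0.41 under morphine.

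Downstream partners, a list of 27 G protein subunits, channels, kinases, arrestins, cyclases and phospholipases, had 25 tested genes, with median log2 fold changes of 0.03 under saline and -0.14 under morphine. Of the 25, 2 passed as higher and none as lower under saline, and 1 as higher and 1 as lower under morphine. Of all tested genes 16.7% passed under saline and 7.69% under morphine, in either direction. Under saline Gnai2, a Gi subunit through which NPY and somatostatin receptors can signal, rose by 0.76 ± 0.215 (SE) and Arrb2, an arrestin that takes part in receptor desensitization, by 1.05 ± 0.248 (SE), with adjusted p-values of 0.0200 and 0.00784. Under morphine their log2 fold changes were 0.52 and 0.20, with adjusted p-values of 0.118 and 0.643. Under morphine Gnaq, a subunit through which CCKBR can signal, passed as higher (0.92 ± 0.222, SE, adjusted p = 0.0174). Kcnj9, a subunit of the potassium channels that Gi-coupled receptors open, passed as lower (-0.65 ± 0.175, SE, adjusted p = 0.0280). Under saline Gnaq and Kcnj9 had log2 fold changes of -0.16 and -0.20, with adjusted p-values of 0.667 and 0.469.

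Morphine against saline was compared within each virus, to ask whether withdrawal shifted the receptors. With the control virus 0% of all tested genes passed, and 11.7% had p under 0.05 before adjustment in edgeR's test. With the knockdown virus 0.00531% passed, and 7.02% had p under 0.05 before adjustment. None of the 10 receptors passed or had p under 0.05 before adjustment in either comparison, and DESeq2's Wald test likewise passed none of them. Over all tested genes DESeq2's Wald test passed 190 with the control virus, 26 with the knockdown virus and 227 for the interaction. Without Ctrl + Saline replicate 1, edgeR's test passed 230 with the control virus. The estimates ran from -0.61 for Npy2r to 0.69 for Sstr2 with the control virus, and from -1.18 for Npy2r to 0.42 for Sstr1 with the knockdown virus. In the interaction 0.085% of all tested genes passed and 0 of 10 receptors, with estimates from -0.89 for Sstr2 to 0.60 for Sstr4. For Crhr1 the effect of morphine was 0.07 ± 0.284 (SE) with the control virus and -0.27 ± 0.265 (SE) with the knockdown virus. For Cckbr it was 0.04 ± 0.233 (SE) and 0.16 ± 0.208 (SE), with a 95% interval of -0.45 to 0.53 in the control groups.

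The precision of each comparison depended on the counts and on the spread between libraries. The standard error of the averaged log2 fold change was 0.156 for Cckbr, at a mean of 339 counts per library, and 0.183 to 0.281 for Vipr1, Crhr1, Sstr3, Sstr2 and Sstr1, at means of 30.9 to 53.8 counts. Within these, Sstr2 had more counts than Vipr1, Crhr1 and Sstr3 and a larger standard error, 0.232. It was 0.310 to 0.465 for Npy1r, Sstr4, Npy5r and Npy2r, at means of 8.88 to 13.7 counts. Among all tested genes 80.3% had a lower mean count than Cckbr, and 8.22% a lower one than Npy5r. A fold change of 1.5, which is 0.585 on the log2 scale, was therefore within 2 standard errors of 0 for the most thinly counted receptors.

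**Figure D5:**
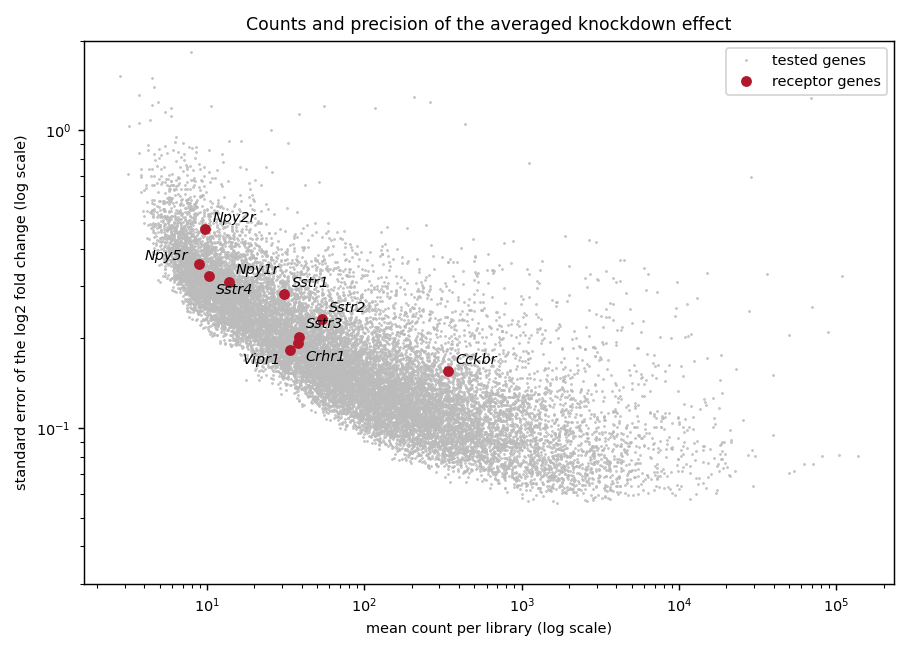
Standard error of the averaged knockdown log2 fold change (vertical axis, log scale) against the mean count per library (horizontal axis, log scale) for all tested genes (grey) and the 10 receptors (red). Cckbr lies far to the right of the other receptors, at 339 counts and a standard error of 0.156, and Npy2r has the largest standard error of the 10, at 0.465.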

How the data were processed

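RNA of mouse mPFC was measured in 16 libraries by Nanopore cDNA-PCR sequencing with 14 PCR cycles. According to the methods, short, low-quality and ribosomal reads were removed by the authors, and full-length reads were aligned to mm10 with minimap2; the submitters' processing notes also name edgeR 3.8.6. The deposited counts are the authors' reads per gene, without normalization, and the deposited CPM are those counts scaled to the library total (largest difference 4.99e-06). Counting of PCR copies without molecular identifiers makes the 3-count floor a counting error only.

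The counts were fitted in edgeR 4.0.16 under R 4.3.3 (filterByExpr, TMM, a single quasi-likelihood fit with 1 coefficient per group over all 16 libraries), with limma 3.58.1 and DESeq2 1.42.0 also loaded, and the pipeline was tested on simulated data. There were 6 comparisons: knockdown under saline, under morphine and averaged, morphine with each virus, and the interaction. The thresholds, which the study's methods name, were a Benjamini-Hochberg adjusted p of 0.05 over 18826 tested entries and a 1.5-fold change. Of the 26625 entries, 7066 and a further 144 lncRNA loci were assembled by the authors and carry no symbol; they were kept in the fit. Depth was 6596991 to 12418112 counts per library. Libraries of a group differed by more than counting error (chi-square per degree of freedom 8.33 to 51.2 over 25 pairs).

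Replicate numbers were examined as a possible pairing by correlating deviations from the group means. Between Ctrl + Saline and Ctrl + Morphine the 3 same-numbered pairs gave 0.146, 0.207 and 0.110. Differently numbered libraries also reached such values. Ctrl + Saline replicate 3 gave 0.133 with Ctrl + Morphine replicate 4, and Ctrl + Morphine replicate 2 gave 0.318 with Kdm7a-shRNA + Saline replicate 4. The highest values of all were same-numbered, between the knockdown groups, at 0.395 for replicates 3 and 0.358 for replicates 4. Replicates 1 and 2 of those groups gave -0.042 and -0.095, so same-numbered pairs were mixed. A pairing was therefore not established. In no other combination of groups were all same-numbered pairs over 0.1.

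Named genes were the 10 receptors, Kdm7a, the ligand-side genes, and from each other list at most 4 genes with the smallest averaged adjusted p-value among those that passed in some comparison. Gpr83, Adcyap1r1, Mc4r and Rxfp1 came from that rule, as did Gnai2, Arrb2, Kcnj9 and Gnaq. Marker genes are given by list, and Tbr1, Gad1, Drd2 and Gpr6 are named for their counts. Ppp1r1b, Adora2a and Rgs9 are named to show which gene carries the striatal sum. A further marker of the microglial list is not reported here. The receptors and the lists were chosen with earlier results of these data known. Coordinates of genes come from GENCODE vM21 (GRCm38), and promoter windows from RefSeq on GRCm38.p6. Each result was recomputed with library size only, with RLE size factors, with 2 other filters, with only the compared groups in the fit, by the Wald test of DESeq2, with a replicate block, by the adjusted p-value alone, with known genes only and without each library in turn. Transcript-level values were not analysed here.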

Additional observations from a re-analysis of the deposited data

Results flagged for a closer look

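Among 30 combinations of a receptor and a group with 4 or 5 libraries, 2 had a library whose gap to its nearest neighbour was large relative to the group's range by Dixon's criterion, which chance alone exceeds in about 1 of 20 groups. Sstr1 was 5.40 normalized CPM in Kdm7a-shRNA + Saline replicate 4, with the other libraries at 1.42 to 2.30. Crhr1 was 6.51 in Ctrl + Morphine replicate 2, with the other libraries at 4.79 to 4.92. The Ctrl + Saline group, with 3 libraries, was not examined in this way.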

How the results depend on the processing

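Under saline the count of receptors that passed was 1, and was 0 with no filter on low counts (Cckbr adjusted p = 0.0508, range over the alternatives 0.0124 to 0.0508) and 0 to 1 with each library left out. Under morphine it was 0, and was 1 with the replicate block (Cckbr -0.59, adjusted p = 0.0322) and 0 to 2 with each library left out. In the averaged comparison it was 0, and was 2 with library size only (Cckbr -0.70, Crhr1 -0.62) and 1 with at least 10 counts in every library, with the replicate block, with the adjusted p-value alone and with known genes only, each time Cckbr. It was 0 to 2 with each library left out. Cckbr passed without Ctrl + Saline replicate 3 (-0.64), Ctrl + Morphine replicate 1 (-0.62), Kdm7a-shRNA + Saline replicate 1 (-0.60) or 4 (-0.65), or Kdm7a-shRNA + Morphine replicate 4 (-0.74), and Crhr1 passed beside it without Kdm7a-shRNA + Saline replicate 1 (-0.59) or Kdm7a-shRNA + Morphine replicate 4 (-0.61). Library size only moved the median of all genes by -0.13 under saline and -0.11 under morphine. The cause of these changes was not tested. The median log2 fold change over the receptors tested was below 0 in each of these fits, at -0.53 to -0.19 under saline, -0.57 to -0.32 under morphine and -0.55 to -0.28 in the averaged comparison. In the morphine comparisons and the interaction, 0 receptors passed under each alternative run.

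Signs were followed gene by gene for all 10 receptors in the knockdown comparisons, and elsewhere for Sstr2, Npy2r, Crhr1 and Cckbr alone. The estimates that changed sign among these were small, and they are listed here. Other receptors changed sign too. For morphine with the knockdown virus 5 receptors were below 0, but 2 without Kdm7a-shRNA + Saline replicate 4 and 7 without Kdm7a-shRNA + Morphine replicate 4. With the control virus 4 were below 0, and 6 with the replicate block. Sstr3 under saline was -0.0705 with library size only, -0.0205 with known genes only and -0.16 to 0.17 with each library left out, and Cckbr under morphine with the control virus was -0.0815 with the replicate block. With each library left out, the log2 fold changes under saline ranged from -0.290 to 0.0292 for Vipr1 and from -0.618 to 0.0410 for Npy5r, and Sstr4 under morphine from -0.34 to 0.16. For morphine with the control virus they ranged from -0.0667 to 0.109 for Cckbr and from -0.0483 to 0.113 for Crhr1. For morphine with the knockdown virus they ranged from -0.410 to 0.0762 for Sstr2 and from -0.15 to 0.32 for Cckbr, and for the interaction of Cckbr from -0.19 to 0.28.

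Between the control groups the correlation of deviations exceeded 0.1 in each same-numbered pair, and between other groups it did not in every pair. Differently numbered libraries exceeded it too, so a pairing was not established. Over all groups the correlation exceeded 0.1 in 6 of 21 same-numbered pairs. It was highest between the knockdown groups, at 0.395 for replicates 3 and 0.358 for replicates 4. With the replicate block 0 receptors passed for morphine with the control virus, as without it, and their median moved from 0.06 to -0.05. The block added Cckbr as a receptor that passed in the knockdown comparison under morphine and in the averaged one. It changed no receptor call in the remaining comparisons. Depth limits Npy2r, Npy5r, Sstr4 and Npy1r most.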
